A study of Mus musculus with 12 samples.

Results

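The genes described here are 9 members of the nuclear factor kappa B (NF-kB) system of the macrophage, namely the subunit genes Nfkb1 and Rel, the inhibitor genes Nfkbia, Nfkbib and Nfkbid, the feedback gene Tnfaip3 with its partners Tnip1 and Tnip3, and the inducible gene Tnfaip2. They were matched by symbol, and all 9 were found among the 38739 symbols of the expression table and passed the filter on low values. RNA was sequenced from bone marrow-derived macrophages (BMDMs), which are macrophages grown from marrow, in 12 samples, with 3 for untreated WT cells (WT UT), 3 for untreated cGAS-/- cells (cGAS-/- UT) and 3 for LPS-treated cells of either genotype (WT LPS and cGAS-/- LPS). WT were C57BL/6J mice and cGAS-/- mice carried a deletion of cGAS, the cytosolic DNA sensor, in every cell of the body on the same background, all male and 8 weeks old. UT cells received medium, and LPS cells received E. coli 026:B6 lipopolysaccharide, the agonist of Toll-like receptor 4, at 100 ng/mL for 1 h by the sample labels, whereas the methods of the study give 150 ng/mL and 24 h. Which dose and time apply to these samples could not be settled, so no time is read into the values. The 3 samples of a group were called technical replicates in a legend of the study, and nothing ties them to separate mice, so the p-values may measure technical spread only.

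In resting cells, NF-kB dimers of p50 (made from Nfkb1), p65, c-Rel (Rel) and their relatives are held in the cytoplasm by inhibitor of kappa B (IkB) proteins. After LPS, the IkB kinase complex marks the IkB proteins for destruction, and the freed dimers enter the nucleus and bind kappa B sites near inflammatory genes. Several of the genes they switch on encode brakes, foremost IkB alpha (Nfkbia), which recaptures the dimers, and the ubiquitin-editing enzyme A20 (Tnfaip3), which works with the adaptors ABIN-1 (Tnip1) and ABIN-3 (Tnip3) upstream of the kinase.

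The sequences in front of the members were searched for the kappa B decamer, the consensus binding sequence of NF-kB, on both strands. RefSeq promoters of the GRCm38.p6 build were found for 8 of the 9 members (11 promoters, since Nfkbid has 3 listed starts and Tnfaip3 has 2), but not for Nfkb1. Within the 250 bases upstream of a start, 7 of these 8 members held at least 1 match in 1 of their promoters, all but Nfkbib. Among all 32851 promoters, 7.25% held a match in the same window, and 8.23% of all 27025 symbols had at least 1 promoter with a match. The promoters of the 4 genes that rose in cGAS-/- cells with LPS, and of Tnfaip2, which differed between the genotypes with LPS, are shown because the results turn on these genes. They run 5′ to 3′ in the direction of the gene, and capitals mark the decamer matches on either strand. The Nfkbia stretch is at chr12:55492648-55492897, minus strand, that of Tnfaip3 (its first listed start) at chr10:19015411-19015660, minus strand, that of Tnip1 at chr11:54962941-54963190, minus strand, that of Tnip3 at chr6:65590148-65590397, plus strand and that of Tnfaip2 at chr12:111442411-111442660, plus strand.
Nfkbia: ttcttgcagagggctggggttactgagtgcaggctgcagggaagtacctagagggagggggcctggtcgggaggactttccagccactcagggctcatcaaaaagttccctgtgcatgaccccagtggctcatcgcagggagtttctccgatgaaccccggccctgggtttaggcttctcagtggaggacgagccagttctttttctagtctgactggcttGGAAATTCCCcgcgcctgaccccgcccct
Tnfaip3: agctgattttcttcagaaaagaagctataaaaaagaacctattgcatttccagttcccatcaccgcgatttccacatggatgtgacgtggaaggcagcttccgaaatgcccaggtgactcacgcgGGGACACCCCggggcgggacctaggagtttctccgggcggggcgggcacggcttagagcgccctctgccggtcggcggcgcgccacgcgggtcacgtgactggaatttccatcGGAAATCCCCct
Tnip1: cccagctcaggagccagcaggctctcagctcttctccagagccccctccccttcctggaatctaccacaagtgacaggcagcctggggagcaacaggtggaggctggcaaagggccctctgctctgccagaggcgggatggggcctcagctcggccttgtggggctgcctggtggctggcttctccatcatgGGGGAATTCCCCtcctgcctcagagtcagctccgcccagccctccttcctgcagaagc
Tnip3: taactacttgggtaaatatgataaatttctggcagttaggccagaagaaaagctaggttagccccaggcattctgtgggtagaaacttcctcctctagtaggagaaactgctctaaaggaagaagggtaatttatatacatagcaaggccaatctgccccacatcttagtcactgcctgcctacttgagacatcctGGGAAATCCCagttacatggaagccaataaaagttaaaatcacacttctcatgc
Tnfaip2: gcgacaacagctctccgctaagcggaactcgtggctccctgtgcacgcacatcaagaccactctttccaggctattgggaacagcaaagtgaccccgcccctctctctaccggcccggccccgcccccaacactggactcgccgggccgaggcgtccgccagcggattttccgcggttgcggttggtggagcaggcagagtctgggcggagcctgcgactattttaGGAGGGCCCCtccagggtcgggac
The match began 29 bases before the start in Nfkbia, 125 and 12 bases before it in Tnfaip3, 54 bases before it in Tnip3 and 24 bases before it in Tnfaip2. In Tnip1, 3 overlapping matches began at 58, 57 and 56 bases before the start and form a single run of capitals. A match is only a run of letters, and binding was not measured.

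The values are TPM (transcripts per 1000000), a mean over all transcripts that carry a symbol, so levels are compared between samples and not between genes. Cgas, the deleted gene, ranged from 1.19 to 3.25 TPM over 6 WT samples and from 0.0703 to 0.291 TPM over 6 cGAS-/- samples, with no overlap. Defining genes of macrophages (8 of 10 listed) summed to 23943 to 25146 TPM in WT UT, 21815 to 30064 in WT LPS, 26624 to 28507 in cGAS-/- UT and 36404 to 36782 in cGAS-/- LPS samples, so that the LPS samples of the genotypes did not overlap. The 6 T and NK cell markers were below 1 TPM in every sample. The 6 erythroid markers summed to 2.69 to 5.24 TPM in WT UT and 2.11 to 7.12 in cGAS-/- UT samples. With LPS the erythroid sums were 0 to 18.4 TPM in WT and 1.04 to 8.38 in cGAS-/- samples. The 8 neutrophil markers summed to 139 to 214 TPM in WT UT, 35.9 to 353 in WT LPS, 53.3 to 126 in cGAS-/- UT and 46.5 to 60.1 in cGAS-/- LPS samples. B cell markers (7 of 8 listed) summed to 110 to 135 TPM in WT UT, 30.8 to 45.8 in WT LPS, 20.4 to 29.2 in cGAS-/- UT and 3.32 to 9.28 in cGAS-/- LPS samples, while Pax5 was below 1 TPM in all groups. The 6 fibroblast markers summed to 7.45 to 9.53 TPM in WT UT, 6.05 to 17.2 in WT LPS, 2.11 to 3.95 in cGAS-/- UT and 2.97 to 3.996 in cGAS-/- LPS samples, with no overlap between the genotypes in either treatment, and the 6 dendritic cell markers to 6.91 to 7.34, 1.95 to 2.50, 3.86 to 6.16 and 1.19 to 2.39 TPM. The part of these marker lists in the results was not tested. The WT LPS samples were unlike each other. Replicate 3 summed to 709802 TPM against 447189 to 503156 in the other 11 samples, its protein-coding share was 18.5% against 39.7% to 54.4%, and the pseudogene Fth-ps3 held 31.7% of it. Correlation over genes between replicates was 0.772 to 0.911 among the WT LPS samples and at least 0.960 in the other groups. In bulk RNA, fewer cells of a type and less RNA per cell cannot be told apart.

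**Figure D1:**
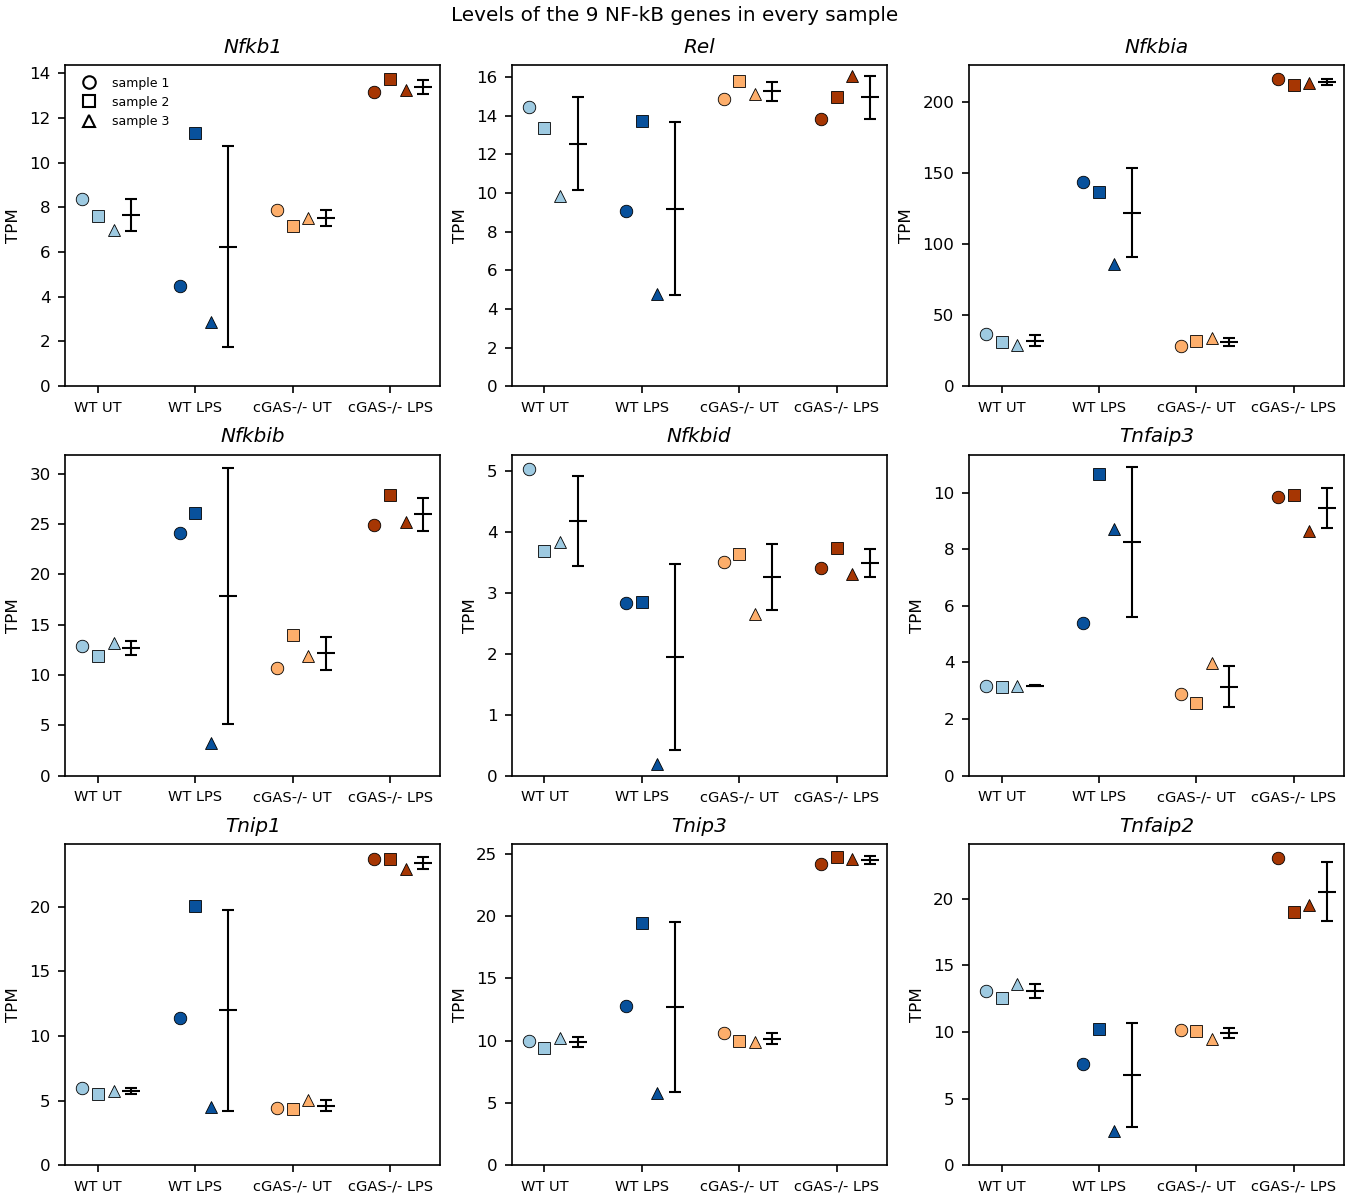
TPM of the 9 genes (vertical axis, one panel per gene) in the 12 samples, with circles, squares and triangles for samples 1, 2 and 3 of a group and bars for the mean and SD (n = 3). The cGAS-/- LPS samples lie close together at 212 to 216 TPM for Nfkbia, whereas the WT LPS samples spread from 86.2 to 144 TPM.

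LPS raised Nfkbia and Tnfaip3 in both genotypes, and in cGAS-/- cells Tnip1 and Tnip3 passed the test as well. Differences were tested with limma on log2(TPM + 1) over 11887 genes in all 12 samples, and a gene was called at an adjusted p under 0.05. In WT cells, 2 of 9 members, Nfkbia and Tnfaip3, rose with LPS and none fell, while 4.31% of all genes passed as higher and 23.3% as lower. With cGAS deleted, 4 of 9 members rose, Nfkbia, Tnfaip3, Tnip1 and Tnip3, and none fell, against 4.76% of all genes higher and 9.06% lower. The median log2 fold change of the members was 0.06 in WT and 1.04 in cGAS-/- cells, beside −0.46 and −0.20 for all genes tested. The WT median depended on single samples and on scaling, at −0.32, −0.41 and 0.63 without WT LPS replicates 1, 2 and 3 (beside −0.48, −0.62 and −0.29 for all genes). It was 0.51 with quantile normalization and 0.77 with median-ratio scaling (1.31 in cGAS-/- cells), beside −0.03 and −0.02 for all genes, but −0.17 with all samples at 1 total and −0.0092 with a common protein-coding total. The 3 LPS samples lay above all 3 UT samples for 7 of 9 members in cGAS-/- cells, as they did for 15.5% of all genes, and for 2 of 9 in WT cells, as for 5.31% of all genes. In WT cells 2 members, Nfkbid and Tnfaip2, lay below all UT samples, as did 32.9% of all genes. A log2 fold change above 2, the further threshold of the study, was passed by Nfkbia and Tnip1 in cGAS-/- cells, as by 1.94% of all genes. Because the fit shares 1 estimate of the spread, the wide WT LPS group also bears on the cGAS-/- calls, and in a fit of the 6 cGAS-/- samples alone 7 of 9 members were called with LPS, where 44.6% of all genes were called.

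**Figure D2:**
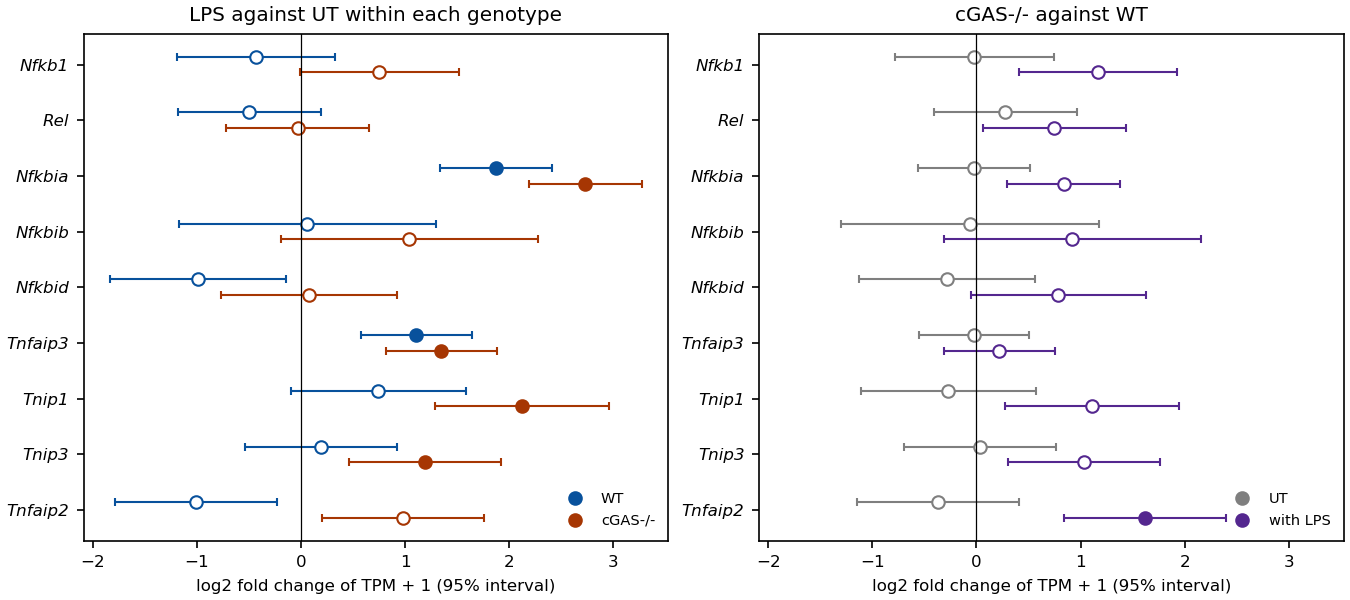
Log2 fold change of TPM + 1 with its 95% interval from limma (horizontal axis) for the 9 genes, LPS against UT in each genotype on the left and cGAS-/- against WT in each treatment on the right. Filled points are genes with an adjusted p under 0.05, which are 2 in WT and 4 in cGAS-/- cells on the left and Tnfaip2 with LPS on the right.

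Among the IkB genes, Nfkbia (GRCm39 chr12:55535332-55539432, minus strand), which encodes IkB alpha, had the largest log2 fold change with LPS of the 9 members in both genotypes. It was at 36.4, 30.8 and 28.6 TPM in the WT UT samples and at 144, 136 and 86.2 TPM in the WT LPS samples. In cGAS-/- cells it was at 28.3, 32.1 and 33.7 TPM without LPS and at 216, 212 and 213 TPM with LPS. The LPS and UT samples did not overlap in either genotype, and the cGAS-/- LPS samples lay above every WT LPS sample. Its log2 fold change with LPS was 1.87 (standard error, SE, 0.25, limma adjusted p = 3.27e-04) in WT and 2.73 (SE 0.25, limma adjusted p = 2.72e-05) in cGAS-/- cells, and both calls held in all 25 alternative settings. The ratio of the mean TPM with LPS to that without was 3.82 in WT and 6.81 in cGAS-/- cells.

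Nfkbib (chr7:28457486-28466937, minus strand) encodes IkB beta, a slower inhibitor of the same dimers. It was at 12.9, 11.9 and 13.2 TPM in WT UT and at 24.1, 26.1 and 3.24 TPM in WT LPS samples, so that replicate 3 alone lay below the UT samples. In cGAS-/- cells the levels were 10.7, 14.0 and 11.9 TPM without and 24.9, 27.9 and 25.2 TPM with LPS, with no overlap. Its change with LPS on the log2 scale was 0.06 (SE 0.56, limma adjusted p = 0.945) in WT and 1.04 (SE 0.56, limma adjusted p = 0.290) in cGAS-/- cells. Both were called without WT LPS replicate 3, at 0.93 (limma adjusted p = 3.75e-04) in WT and 1.04 (limma adjusted p = 7.40e-05) in cGAS-/- cells. The WT value turned to −0.35 without WT LPS replicate 1 and to −0.41 without replicate 2, and neither was called.

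Nfkbid (chr7:30121150-30128171, plus strand) encodes a nuclear IkB protein that works on DNA-bound p50. It was at 5.03, 3.69 and 3.84 TPM in WT UT and at 2.83, 2.85 and 0.190 TPM in WT LPS samples, and at 3.51, 3.64 and 2.65 TPM without and 3.41, 3.75 and 3.31 TPM with LPS in cGAS-/- cells. The WT LPS samples were all below the WT UT samples, whereas the cGAS-/- groups overlapped. On the log2 scale, LPS against UT was −0.99 in WT (SE 0.38, limma adjusted p = 0.0750) and 0.08 in cGAS-/- cells (SE 0.38, limma adjusted p = 0.940), and neither was called. Without WT LPS replicate 1 or 2 the WT difference was −1.27 in both cases and passed the test (limma adjusted p = 0.0406 and 0.0248), and without replicate 3 it was −0.42 (limma adjusted p = 0.0571). With median-ratio scaling it was −0.58 and with quantile normalization −0.50, neither called, whereas at −1.14 with a common protein-coding total it passed (limma adjusted p = 0.0180). Nfkbid was not called higher with LPS in either genotype under any of the 25 settings.

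Tnfaip3 (chr10:18874201-18891405, minus strand) encodes A20. It was nearly even in WT UT samples, at 3.18, 3.15 and 3.18 TPM, and was at 5.40, 10.7 and 8.72 TPM in WT LPS samples. It was at 2.87, 2.58 and 3.97 TPM without and 9.85, 9.91 and 8.66 TPM with LPS in cGAS-/- cells. The LPS samples lay above the UT samples in both genotypes, and the LPS levels of the genotypes overlapped. On the log2 scale the rise was 1.11 (SE 0.24, limma adjusted p = 0.00722) in WT and 1.35 (SE 0.24, limma adjusted p = 0.00311) in cGAS-/- cells. The WT call was lost in a fit of the 6 WT samples alone (limma adjusted p = 0.116) and with a weight per sample (limma adjusted p = 0.0514), and the cGAS-/- call held in all 25 settings. Tnfaip3 was the only member whose lowest TPM among the WT LPS samples was not in replicate 3.

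Tnip1 (chr11:54796320-54854661, minus strand), which encodes the A20-binding adaptor ABIN-1, was at 5.98, 5.50 and 5.78 TPM in WT UT and at 11.4, 20.1 and 4.52 TPM in WT LPS samples. With cGAS deleted it went from 4.44, 4.32 and 5.07 TPM to 23.7, 23.7 and 22.9 TPM, and every cGAS-/- LPS sample lay above every WT LPS sample. WT LPS replicate 3 lay below the UT samples and the other 2 above them. The log2 value of LPS against UT was 0.74 (SE 0.38, limma adjusted p = 0.159) in WT and 2.12 (SE 0.38, limma adjusted p = 0.00315) in cGAS-/- cells, and the latter was called in all 25 settings. The WT rise was 1.26 without WT LPS replicate 3 and was then called (limma adjusted p = 7.32e-04), and it was 0.30 without replicate 2 (limma adjusted p = 0.417). It was also called with median-ratio scaling, at 1.45, and with quantile normalization, at 1.25.

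Tnip3 (chr6:65502295-65611024, plus strand), which encodes the related ABIN-3, was at 9.94, 9.43 and 10.2 TPM in WT UT, at 12.8, 19.4 and 5.82 TPM in WT LPS, at 10.7, 9.94 and 9.89 TPM in cGAS-/- UT and at 24.2, 24.8 and 24.6 TPM in cGAS-/- LPS samples. As for Tnip1, WT LPS replicate 2 was the highest and replicate 3 the lowest of that group. LPS against UT gave a log2 value of 0.20 (SE 0.33, limma adjusted p = 0.669) in WT and 1.19 (SE 0.33, limma adjusted p = 0.0349) in cGAS-/- cells. The cGAS-/- call was lost in 12 of 25 settings, among them the removal of any sample of WT UT, cGAS-/- UT or cGAS-/- LPS, where the log2 fold change stayed between 1.18 and 1.23 and the highest limma adjusted p was 0.108. It was called in the fit of the 6 cGAS-/- samples alone (limma adjusted p = 1.41e-05). The WT difference was 0.63 without WT LPS replicate 3 and was then called (limma adjusted p = 0.0103), and it was −0.16 without replicate 2 (limma adjusted p = 0.620). It was called with median-ratio scaling, at 0.93, and with quantile normalization, at 0.66.

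Neither subunit gene was called with LPS. Nfkb1 (chr3:135290264-135397742, minus strand), which encodes the p105 precursor of p50, was at 8.39, 7.59 and 6.97 TPM in WT UT and at 4.49, 11.3 and 2.88 TPM in WT LPS samples. In cGAS-/- cells it was at 7.90, 7.17 and 7.51 TPM without and at 13.1, 13.8 and 13.2 TPM with LPS, without overlap. The change with LPS was −0.43 on the log2 scale (SE 0.35, limma adjusted p = 0.358) in WT and 0.75 (SE 0.35, limma adjusted p = 0.205) in cGAS-/- cells. The cGAS-/- difference was called in 6 of 25 settings, such as without WT LPS replicate 2 (limma adjusted p = 0.00819) or replicate 3 (limma adjusted p = 0.0380) and with the cGAS-/- samples alone (limma adjusted p = 1.59e-04). In WT cells Nfkb1 was called lower without WT LPS replicate 2 (−0.90, limma adjusted p = 0.00283), and its sign turned to 0.25 with median-ratio scaling and 0.07 with quantile normalization.

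Rel (chr11:23686847-23721264, minus strand), which encodes c-Rel, was at 14.5, 13.4 and 9.85 TPM in WT UT, at 9.08, 13.7 and 4.77 TPM in WT LPS, at 14.9, 15.8 and 15.1 TPM in cGAS-/- UT and at 13.8, 14.9 and 16.04 TPM in cGAS-/- LPS samples. The LPS and UT samples overlapped in both genotypes. The log2 fold change with LPS was −0.50 (95% interval −1.18 to 0.19) in WT and −0.03 (95% interval −0.72 to 0.66) in cGAS-/- cells, and the latter turned to 0.24 with median-ratio scaling. Without WT LPS replicate 2, Rel was called lower with LPS in WT cells (−0.81, limma adjusted p = 0.0234). The WT value was −0.14 without replicate 3 and turned to 0.23 with median-ratio scaling, and neither was called.

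Tnfaip2 (chr12:111408858-111421452, plus strand), a gene induced by tumour necrosis factor and LPS whose protein shapes membrane protrusions, had LPS differences of opposite sign in the genotypes. It was at 13.1, 12.6 and 13.6 TPM in WT UT and at 7.60, 10.2 and 2.55 TPM in WT LPS samples. In cGAS-/- cells it was at 10.1, 10.1 and 9.48 TPM without and at 23.1, 19.0 and 19.5 TPM with LPS. All WT LPS samples lay below the WT UT samples and all cGAS-/- LPS samples above the cGAS-/- UT samples. Neither difference was called, at −1.01 (SE 0.35, limma adjusted p = 0.0542) in WT and 0.98 (SE 0.35, limma adjusted p = 0.10) in cGAS-/- cells. Without WT LPS replicate 2 the values were −1.35 (limma adjusted p = 0.00625) and 0.98 (limma adjusted p = 0.0344), and without replicate 3 they were −0.52 (limma adjusted p = 0.0155) and 0.98 (limma adjusted p = 2.02e-04), so that both were called. The WT value was smaller and not called with median-ratio scaling (−0.32, limma adjusted p = 0.241) and with quantile normalization (−0.53, limma adjusted p = 0.0825), and it was called at −1.07 with a common protein-coding total (limma adjusted p = 0.00526). The sign in each genotype was kept in all 25 settings.

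Between the genotypes with LPS, all 9 members had a log2 fold change above 0 (higher in cGAS-/- cells), as did 65.0% of all genes tested. Of the 9, only 1, Tnfaip2, was called higher and none lower, while 1.36% of all genes passed as higher and 1.00% as lower. The log2 fold change of Tnfaip2 was 1.62 (SE 0.35, limma adjusted p = 0.0401), with a mean of 20.5 ± 2.20 TPM in cGAS-/- and 6.79 ± 3.89 TPM in WT cells (SD, n = 3). For 7 of 9 members, all but Nfkbib and Tnfaip3, the 3 cGAS-/- LPS samples lay above all 3 WT LPS samples, as they did for 12.6% of all genes. The median of the 9 was 0.92, beside 0.20 over all genes tested, and it was 0.59 with median-ratio scaling, 0.59 without WT LPS replicate 3 and 1.39 without replicate 2 (beside −0.02, 0.04 and 0.36 for all genes). At an unadjusted limma p under 0.05, 6 of 9 passed, as did 18.8% of all genes in either direction, and these 6 were Nfkb1 (1.17), Tnip1 (1.11), Tnip3 (1.04), Nfkbia (0.84) and Rel (0.75) besides Tnfaip2. With median-ratio scaling these 5 were smaller, at 0.76 for Nfkb1, 0.67 for Tnip1, 0.59 for Tnip3, 0.34 for Nfkbia and 0.31 for Rel, of which Nfkb1 and Tnip3 were called. The smallest difference was that of Tnfaip3, 0.22 (95% interval −0.31 to 0.75), and it turned to −0.24 with median-ratio scaling, to −0.03 with quantile normalization and to −0.03 without WT LPS replicate 1.

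The genotype difference depended on the WT LPS samples. Within that group, replicate 2 held the highest TPM for 8 of 9 members and replicate 3 the lowest for 8 of 9. Scaled to the protein-coding total of each sample, replicate 3 was the lowest for 5 of 9 and the highest for 2, Nfkbia and Tnfaip3. The ratio of the highest to the lowest WT LPS value was 15.0 for Nfkbid, 8.07 for Nfkbib, 4.44 for Tnip1 and 1.67 for Nfkbia, while among cGAS-/- LPS samples it was between 1.02 and 1.21 for every member. Without WT LPS replicate 3, 3 members were called, Tnfaip2 at 1.13 (limma adjusted p = 0.00101), Nfkbia at 0.61 (limma adjusted p = 0.0129) and Tnip3 at 0.60 (limma adjusted p = 0.0379), where 8.28% of all genes were called. The other differences then shrank, to 0.81 for Nfkb1, 0.59 for Tnip1, 0.39 for Rel, 0.22 for Nfkbid and 0.05 for Nfkbib, except that of Tnfaip3 (0.28), and none of these 6 was called. Without replicate 2, the highest of the group, 6 members were called, where 27.9% of all genes were, with Nfkb1 at 1.64 and Tnip1 at 1.56. Without replicate 1, Tnfaip2 was the only member called, where 2.97% of all genes were. The Tnfaip2 call was also lost on removal of any 1 of the WT UT, cGAS-/- UT or cGAS-/- LPS samples, with limma adjusted p between 0.0718 and 0.169 and a log2 fold change between 1.54 and 1.67, and in the 6 LPS samples alone no member was called (the adjusted p of Tnfaip2 in limma was 0.493, and 3 of 9 had an unadjusted p under 0.05, as had 7.47% of all genes). On the protein-coding scale, Tnfaip3 was at 20.0, 45.0 and 66.4 per 1000000 in WT LPS and at 41.9, 42.2 and 36.9 in cGAS-/- LPS samples, so that replicate 3 went to the top of its group, whereas Tnfaip2 at 28.2, 43.1 and 19.4 remained below the cGAS-/- LPS values of 98.2, 81.1 and 83.2.

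**Figure D3:**
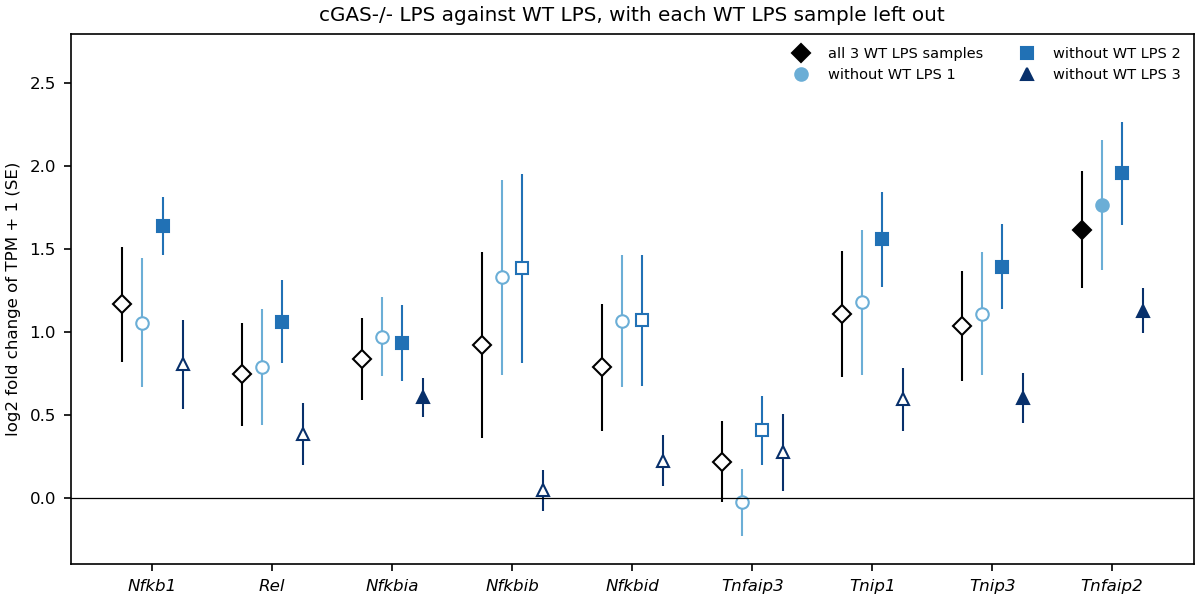
Log2 fold change of TPM + 1 between cGAS-/- LPS and WT LPS samples (vertical axis, bars are the standard error from limma) for the 9 genes, with all samples and with each WT LPS sample left out. Filled symbols have an adjusted p under 0.05, and only Tnfaip2 is filled in all 4 fits.

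The LPS effect of the genotypes was compared with the interaction term. No member was called with limma (0.900% of all genes were), and 4 of 9 had an unadjusted p under 0.05, as had 11.1% of all genes. The LPS effect was larger in cGAS-/- cells by 1.99 on the log2 scale for Tnfaip2 (SE 0.50, limma adjusted p = 0.119), by 1.38 for Tnip1 (limma adjusted p = 0.370), by 1.19 for Nfkb1 (limma adjusted p = 0.405) and by 0.86 for Nfkbia (limma adjusted p = 0.392). For Tnfaip3 it was 0.24 (95% interval −0.51 to 0.99). A larger LPS effect in cGAS-/- cells is therefore not shown for any member by this test, although the Tnfaip2 term was called in 7 of 24 settings, among them without WT LPS replicate 2 (2.33, limma adjusted p = 0.0130) and without replicate 3 (1.5, limma adjusted p = 0.00185). Without replicate 2, Nfkb1 (1.66), Tnip1 (1.83) and Tnip3 (1.36) were called too, where 12.6% of all genes were called, while without replicate 3 they were at 0.82, 0.86 and 0.57 and not called, where 4.56% of all genes were.

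In UT cells, no member differed between the genotypes by limma (1.83% of all genes were called in either direction), and none had an unadjusted p under 0.05, as 8.08% of all genes had. The samples of the genotypes did not overlap for 4 of 9 members, with Rel higher in cGAS-/- cells, as 12.1% of all genes were, and Nfkbid, Tnfaip2 and Tnip1 lower, as 18.4% were. The log2 fold change was between −0.37 (Tnfaip2, 95% interval −1.15 to 0.41) and 0.28 (Rel, 95% interval −0.41 to 0.96), with Nfkb1 at −0.02 (95% interval −0.78 to 0.74), Nfkbia at −0.02 (95% interval −0.56 to 0.52) and Tnfaip3 at −0.02 (95% interval −0.56 to 0.51). The intervals are widened by the shared spread. In a fit of the 6 UT samples alone, Tnfaip2 was called lower in cGAS-/- cells (−0.37, limma adjusted p = 0.0168), with means of 9.91 ± 0.372 against 13.1 ± 0.523 TPM (SD, n = 3) and no overlap, where 10.4% of all genes were called.

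Ratios of members within a sample do not depend on how the sample was scaled. Nfkbia to Nfkb1, the inhibitor against the subunit gene, was 4.34, 4.05 and 4.11 in WT UT and 3.58, 4.47 and 4.49 in cGAS-/- UT samples. With LPS it was 16.5, 15.4 and 16.1 in cGAS-/- samples and 32.0, 12.02 and 30.0 in WT samples. The ratio was thus higher in every LPS sample than in any UT sample, and the WT LPS values lay on both sides of the cGAS-/- ones. Tnfaip3 to Tnip1, A20 against its adaptor, was 0.532, 0.572 and 0.550 in WT UT and 0.648, 0.597 and 0.784 in cGAS-/- UT samples. With LPS it was 0.416, 0.418 and 0.378 in cGAS-/- samples, below every other sample, and 0.472, 0.531 and 1.93 in WT samples, where replicate 3 stood far above the rest.

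**Figure D4:**
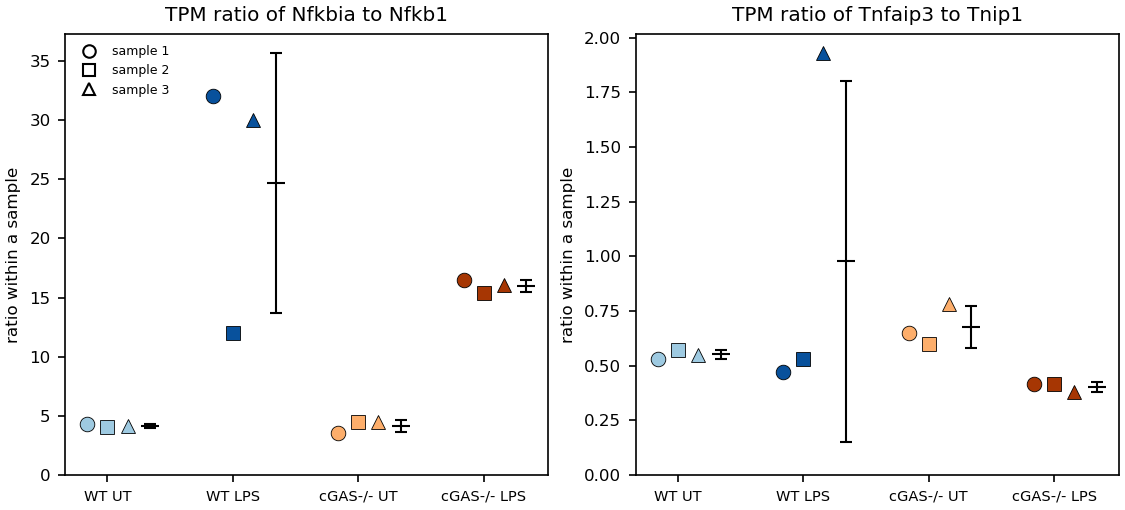
Ratio of TPM within each sample (vertical axis) for Nfkbia to Nfkb1 on the left and Tnfaip3 to Tnip1 on the right in the 4 groups, with symbols for samples 1, 2 and 3 and bars for the mean and SD (n = 3). WT LPS replicate 3 stands at 1.93 in the right panel against 0.378 to 0.784 in all other samples.

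The other genes of the pathway were taken from 4 lists of textbook members. The lists were chosen with earlier results of these data known, so their counts beside those of all genes only describe them. Of the remaining subunit and IkB genes, 2 of 6 (Relb and Bcl3) were analysed here. Bcl3, a nuclear IkB protein, rose with LPS in cGAS-/- cells from 3.09 ± 0.592 to 11.6 ± 0.850 TPM (SD, n = 3), by 1.63 on the log2 scale (limma adjusted p = 0.0412), and Relb, the partner of p52, was at 1.79 and 5.02 TPM (limma adjusted p = 0.0562). In WT cells neither was called. Of 12 of the 20 genes for the IkB kinase complex and its upstream kinases and adaptors, 2 rose with LPS in each genotype (4.31% of all genes rose in WT and 4.76% in cGAS-/- cells), Myd88, the adaptor of Toll-like receptors (1.52 in WT and 1.36 in cGAS-/- cells), and Traf2, an adaptor of tumour necrosis factor receptors (1.35 and 1.14). Map3k14, the kinase of the noncanonical branch, fell by 1.30 on the log2 scale in WT (limma adjusted p = 0.00690), where 23.3% of all genes fell. The median of this list was −0.49 in WT and 0.02 in cGAS-/- cells, beside −0.46 and −0.20 over all genes tested, and none of its genes was called between the genotypes with LPS.

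Among the other brakes, 12 of 14 were tested, and 2 rose with LPS in WT and 3 in cGAS-/- cells, where 4.31% and 4.76% of all genes rose. The medians of this list were −0.56 and −0.15, beside −0.46 and −0.20 over all genes. Irak3, a kinase-dead inhibitor of receptor signalling, rose by 2.03 in WT and 3.43 in cGAS-/- cells, and N4bp1, a binder of ubiquitin chains, rose by 1.32 and 2.51. Zc3h12a, the ribonuclease Regnase-1 that degrades cytokine transcripts, rose in cGAS-/- cells alone by the test, by 2.32 from 8.86 to 46.7 TPM, and was at 0.79 in WT cells (limma adjusted p = 0.146). The difference between the genotypes in this rise, 1.53, was not called (limma adjusted p = 0.321). None of the 12 was called between the genotypes with LPS, with Irak3 nearest at 1.39 (limma adjusted p = 0.0530).

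Of the textbook NF-kB target genes outside the members, 21 of 24 were tested. With LPS, 18 rose in WT and 20 in cGAS-/- cells and none fell, while 4.31% and 4.76% of all genes rose. The medians were 1.76 and 3.10, beside −0.46 and −0.20 over all genes. The 3 largest log2 fold changes were those of Ccl5 (8.36), Il1a (4.97) and Il1b (4.33) in WT and of Ccl5 (8.24), Il1b (7.22) and Il1a (7.02) in cGAS-/- cells, which encode a chemokine and both forms of interleukin-1. The scale of TPM + 1 understates low genes such as Nos2, with means of 0.0508 TPM in WT UT and 9.49 TPM in WT LPS. Means of Nos2 in cGAS-/- cells were 0.0519 TPM without and 11.7 TPM with LPS. Between the genotypes with LPS, 8 of 21 were higher in cGAS-/- cells (1.36% of all genes were) and none was lower. The median of the 21 was 1.13, beside 0.20 over all genes. The 3 largest were Cxcl3 (3.17), Il1b (3.11) and Il6 (3.09), which encode a neutrophil chemokine and a pair of inflammatory cytokines. These calls come from the fit of all samples, in which the groups share a common estimate of the spread. With the LPS samples alone, 5 of all genes were called, and 2 of them were higher. At most 2 of these 8 could therefore be called there, and the target genes were not refitted one by one. Ccl5 was at 7265 TPM in WT and 6413 TPM in cGAS-/- cells with LPS, a log2 fold change of −0.07 (limma adjusted p = 0.940). The interaction term was called for 2 of the 21 (0.900% of all genes), Il1a (2.05, limma adjusted p = 0.0438) and Il6 (3.14, limma adjusted p = 2.88e-04).

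The 5 genes outside the members whose pattern was most like the average of the 9, by Pearson's r over the 12 samples with the mean of their standardised log2(TPM + 1) values, were Dusp6 (0.992), Lpcat2 (0.988), Lyn (0.983), Tmem38b (0.980) and Nfe2l1 (0.980). The samples share their groups and their scaling, so these values describe likeness only. Dusp6, a phosphatase of ERK kinases, was at 5.04 and 5.48 TPM in WT UT and WT LPS and at 4.75 and 10.3 TPM in cGAS-/- UT and cGAS-/- LPS cells.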

How the data were processed

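The deposited values were taken as TPM, of which the authors gave 1 mean over the transcripts that carry a symbol. The unit was inferred from the values, since neither the labels nor the methods name it. Per the labels and the methods, strand-specific libraries were trimmed with fastp, mapped to GRCm39 with STAR and quantified with kallisto (versions not given in the sources used here). The labels give LPS at 100 ng/mL for 1 h and an extraction from neutrophils, whereas the methods give 150 ng/mL for 24 h and macrophages. Read numbers are not given, and counting errors could not be set. Of the columns, 0 belonged to no sample. Column totals differ.

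Genes were kept where 3 or more samples reached 1 TPM once all columns had been brought to a total of 1000000, a step used for this filter only (11887 genes), and log2(TPM + 1), which understates the change of low genes, was fitted with limma 3.58.1 (R 4.3.3), a mean per group over all 12 samples and a variance trend. Adjusted p-values are Benjamini-Hochberg over all genes tested, two-sided, and calls were made under 0.05, with a log2 fold change of 2 as a further threshold. The step was tested on simulated data with the same spread of a gene in all groups. The wider spread of the WT LPS samples was not simulated. The comparisons were LPS against UT in each genotype, the genotypes in each treatment, and the interaction. All 9 members were named. From the pathway lists, genes with an adjusted p under 0.05 were named, at most 3 in each direction; Relb, Ccl5 and single genes given as not called were named after their values were seen. Members and lists were chosen with earlier results of these data known. The other settings are given in the closing section. Promoters were taken from RefSeq (GRCm38.p6) and gene positions from the GENCODE annotation of GRCm39; the builds were not mixed.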

Additional observations from a re-analysis of the deposited data

Results flagged for a closer look

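Tnfaip2 was singled out because every WT LPS sample lay below every WT UT sample (7.60, 10.2 and 2.55 against 13.1, 12.6 and 13.6 TPM) while every cGAS-/- LPS sample lay above every cGAS-/- UT sample (23.1, 19.0 and 19.5 against 10.1, 10.1 and 9.48 TPM). The LPS effect in cGAS-/- minus that in WT cells was 1.99 on the log2 scale, and the interaction term did not pass the test over all genes (limma adjusted p = 0.119; lowest 0.00185 and highest 0.302 over 24 alternative settings). The WT samples behind this value are those with the widest spread, and the part of that spread in the difference was not tested.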

How the results depend on the processing

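The 9 members were refitted under 25 alternative settings (24 for the interaction). The number of members called between the genotypes with LPS, 1, became 0 with a pseudocount of 0.1, with no filter, with all samples rescaled to 1 total, with only the groups compared and with a replicate block (1.37%, 0.725%, 1.71%, 0.0421% and 1.51% of all genes were then called), 3 with median-ratio scaling and 4 with quantile normalization (4.32% and 4.64%), and lay between 0 and 6 with each sample left out (0.648% to 27.9%). In UT cells it went from 0 to 1 with only the groups compared and with weights per sample, where 10.4% and 11.5% of all genes were called. For WT LPS against WT UT, 2 became 4 with median-ratio scaling and quantile normalization, which added Tnip1 and Tnip3 as higher (19.6% and 20.6% of all genes were called), and 4 with a common protein-coding total (chosen after seeing the data) and protein-coding genes only, which added Nfkbid and Tnfaip2 as lower (39.9% and 41.0%). It was 3 with a pseudocount of 5, a filter of 5 TPM, 1 total and no trend, each adding Tnfaip2 as lower (29.4%, 32.7%, 32.6% and 27.5%), 1 with only the groups compared (6.02%), and 2 to 6 with each sample left out (16.5% to 48.7%). For cGAS-/- LPS against cGAS-/- UT, 4 became 7 with median-ratio scaling, only the groups compared and weights per sample (13.8%, 44.6% and 48.3% of all genes), 6 with quantile normalization (15.1%), 5 with a pseudocount of 5 (15.4%), 3 with no filter, 1 total or the replicate block (5.79%, 13.1% and 11.9%), and 3 to 7 with each sample left out (8.58% to 30.8%). For the interaction, 0 became 1 with a pseudocount of 5, median-ratio scaling, quantile normalization and a common protein-coding total (1.72%, 1.29%, 1.27% and 1.08% of all genes), 2 with weights per sample (2.46%), and 0 to 4 with each sample left out (12.6% where it was 4). The cause of these moves was not tested.

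Log2 fold changes turned their sign in 37 of 1116 refits, mostly near 0. In UT cells, Nfkb1 was 0.0028 (median-ratio), 0.044 (quantile), 0.023 (protein-coding total) and −0.076 to 0.043 with 1 sample left out. Nfkbia was 3.8e-05 (median-ratio), 0.064 (quantile), 0.022 (protein-coding total) and −0.096 to 0.072 with 1 sample left out. Nfkbib was 0.0016 (quantile) and −0.16 to 0.021 with 1 sample left out. Tnfaip3 was 0.051 (quantile), 0.011 (protein-coding total) and −0.16 to 0.074 with 1 sample left out and Tnip3 was −0.032 (1 total). For LPS in WT cells, Nfkb1 was 0.25 (median-ratio), 0.069 (quantile), Rel was 0.23 (median-ratio), Nfkbib was −0.17 (1 total), −0.0092 (protein-coding total) and −0.41 to 0.93 with 1 sample left out and Tnip3 was −0.054 (1 total) and −0.16 to 0.63 with 1 sample left out. For LPS in cGAS-/- cells, Rel was 0.24 (median-ratio), 0.077 (quantile) and −0.080 to 0.020 with 1 sample left out and Nfkbid was −0.15 (protein-coding total) and −0.029 to 0.14 with 1 sample left out. Between the genotypes with LPS, Tnfaip3 was −0.24 (median-ratio), −0.029 (quantile) and −0.026 to 0.41 with 1 sample left out. In the interaction, Tnfaip3 was −0.23 (median-ratio), −0.080 (quantile) and −0.0018 to 0.43 with 1 sample left out. Of the single values, 192 of 225 for LPS in WT, 191 of 225 for LPS in cGAS-/-, 196 of 225 between genotypes with LPS, 206 of 225 in UT cells and 202 of 216 for the interaction kept their sign and their side of the threshold.

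Median-ratio scaling moved the median over all genes from −0.46 to −0.02 for LPS in WT cells, from −0.20 to −0.02 in cGAS-/- cells and from 0.20 to −0.02 between the genotypes with LPS, and the higher share of all calls from 15.6% to 42.6%, from 34.4% to 49.3% and from 57.7% to 47.6%. Between the genotypes with LPS, 281 genes in all were called, 5 with only the groups compared, 984 without WT LPS replicate 3 and 3312 without replicate 2. The samples share replicate numbers, but the deviations of same-numbered samples correlated between −0.03 and 0.04 over genes, so no pairing was seen. Such correlations cannot tell whether same-numbered samples share a mouse or a culture. With the replicate block, 0, 0, 2, 3 and 0 members were called (LPS genotypes, UT genotypes, LPS in WT, LPS in cGAS-/-, interaction), where 1.51%, 1.43%, 24.9%, 11.9% and 0.454% of all genes were. Depth is unknown, so low values such as 0.190 TPM for Nfkbid carry an unknown counting error.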
